A study of Mus musculus with 4 samples.

Results

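The genes described here are those of the cytosolic ribosomal proteins, the protein parts of the ribosomes that translate nuclear mRNA. They were the rows of the count tables whose symbol starts with Rpl or Rps and a number, with Rplp0, Rplp1, Rplp2 and Rpsa, and with 10 or more counts in at least 2 libraries. Of 21878 rows, 84 met this rule, 50 named for the large subunit and 34 for the small subunit. The symbol pattern matched 100 rows. It lost 2 pseudogenes, 10 S6 kinases, and 4 paralogs with too few counts (Rpl10l, Rpl32l, Rpl39l and Rpl3l). Of the 84 rows, 77 are canonical ribosomal proteins. The other 7 are the paralogs Rpl7l1, Rpl22l1, Rps27l and Rpl36al, the retrogenes Rpl37rt and Rps27rt, and Rps19bp1, a binding partner of Rps19 that is not itself a ribosomal protein. The rule does not reach Fau and Rack1, which also encode parts of the ribosome and are given separately.

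A ribosome joins a small subunit, which holds the mRNA and reads its codons, to a large subunit, which forms the peptide bonds. Each canonical protein is needed in about one copy per ribosome, and the genes are transcribed strongly and in balance. Many of their mRNAs begin with a run of pyrimidines, the TOP motif (terminal oligopyrimidine), through which the kinase mTORC1 controls their translation. In liver, ribosome production is known to follow growth and regeneration.

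The RNA came from livers of C57BL/6 mice, whose cells had been sorted on magnetic beads for the surface protein CD24. The 2 CCL4 libraries came from mice given carbon tetrachloride, a liver toxin, at 2 ml/kg in olive oil by intraperitoneal injection, 2 times a week for 6 weeks. The 2 HACY libraries came from mice given Y-27632, which blocks protein kinases, A-83-01, which blocks type I receptors of TGF-beta, and CHIR99021, which blocks the kinase GSK3, injected intraperitoneally 3 times a week for 6 weeks. Mice were 8 weeks old when injected, and the labels do not make clear whether HACY mice also received carbon tetrachloride. There was no untreated group, so every difference is HACY relative to CCL4. No label ties the replicates to different animals. The p-values therefore reflect the variation among 4 libraries, some of which may be technical.

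Library totals lay between 18467299 and 19314219 counts, and the median ribosomal protein row had between 6507.5 and 9043 counts per library. The lowest count of any of the 84 rows was 78. The labels call the sorted cells hepatocytes. Summed CPM (counts relative to library size, scaled by edgeR's TMM method) of 6 hepatocyte markers was 26029 and 32780 in HACY and 7751 and 6284 in CCL4. All 6 passed the test as higher in HACY. Of all genes tested, 8.19% were called higher and 3.54% lower. Of 6 macrophage markers, 5 were also higher, with sums of 1848 to 2647 in HACY and 775 to 1118 in CCL4. Among 5 endothelial markers 1 was higher and 1 lower, with sums of 383 to 1147. None of the tested B cell (5 genes), stellate (4), cholangiocyte (5), erythroid (2), neutrophil (4) or T and NK cell (1) markers was called. Their sums were 23.0 to 28.8, 254 to 529, 1132 to 4206, 1.87 to 8.97, 11.6 to 176 and 0.197 to 1.53 CPM. Single libraries decided some of this, which is given here by effect size only. The median log2 fold change of HACY over CCL4 for neutrophil markers was -2.74 without CCL4 replicate 1 and 2.65 without CCL4 replicate 2. In the same order it was -0.14 and 0.99 for stellate, 0.30 and 1.15 for cholangiocyte markers. For endothelial markers it was 0.55 and 1.39, and for erythroid markers 1.06 and 1.84. The neutrophil sum was 176 in CCL4 replicate 2 and at most 17.3 in the other libraries. Too low to test were 4 T and NK cell markers (at most 10 counts in a library), 3 erythroid (10), 2 neutrophil (30) and 1 stellate marker (8). No marker in the tables was at 0 in every library. Cd24a, the gene of the sorted protein, had 21.9 and 19.4 CPM in HACY and 20.7 and 38.0 in CCL4. The part of these cell markers in the values below was not tested. In bulk RNA, fewer cells of a type and less RNA per cell cannot be told apart.

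Ribosomal protein genes took a smaller part of the RNA in HACY. They held 3.10% and 3.15% of the counts in HACY replicates 1 and 2, and 4.14% and 4.35% in CCL4 replicates 1 and 2. Both HACY libraries lay below both CCL4 libraries. The means were 3.13% ± 0.0319 and 4.24% ± 0.148 (SD, n = 2), a difference of -1.12 percentage points and a ratio of 0.737. The exact two-sided permutation p was 0.33, and no smaller value is possible with 2 libraries per group. The share of summed FPKM, which divides reads by transcript length, was 11.2% ± 0.0283 in HACY and 14.8% ± 0.0408 in CCL4 (SD, n = 2).

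Both subunits contributed. The large subunit held 1.84% and 1.87% of the counts in HACY and 2.44% and 2.56% in CCL4. The small subunit held 1.26% and 1.28%, against 1.70% and 1.79%. Counts for the large subunit were 1.461 and 1.458 times those for the small subunit in HACY, and 1.435 and 1.430 times in CCL4. These ratios did not overlap but were close, at 1.46 ± 0.00206 and 1.43 ± 0.00368 (SD, n = 2; exact permutation p = 0.33). No single gene carried the lower share. The largest contribution was that of Rps14, at 5.10% of the difference, then Rpsa at 4.82%, Rplp0 at 4.57% and Rpl41 at 3.84%. Without CCL4 replicate 2 Rps14 gave 2.04% of the difference, and Rpsa was first at 4.85%. Without Rps14 the shares were 3.10% ± 0.0339 and 4.16% ± 0.0966 (SD, n = 2).

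**Figure D1:**
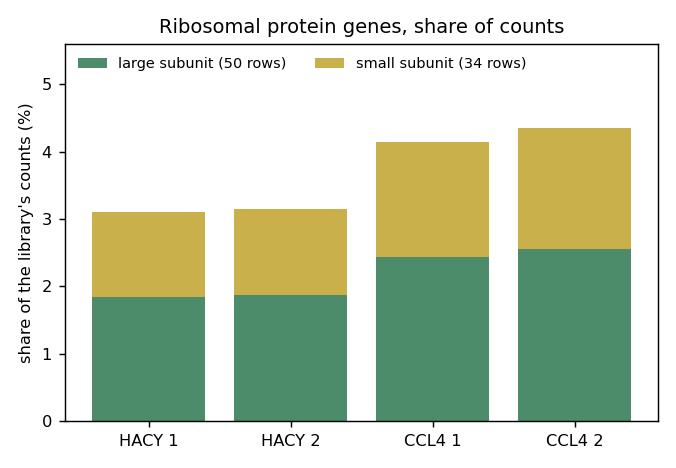
Share of each library's counts (percent) held by the 84 ribosomal protein rows, one bar per library, split into rows named for the large and the small subunit. Both HACY bars, at 3.10% and 3.15%, end below both CCL4 bars, at 4.14% and 4.35%, and both parts of the bar are shorter.

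Gene by gene, nearly all differences pointed the same way and most were small. After TMM scaling 80 of the 84 log2 fold changes were negative (lower in HACY). Their median was -0.26, a fold of 0.837, with quartiles of -0.36 and -0.15. Over all 13428 genes tested, 50.9% were negative and the median was -0.0093. The median was -0.27 for the large subunit and -0.26 for the small subunit. All 84 rows passed the filter on low counts. At an adjusted p below 0.05 (edgeR's quasi-likelihood test, Benjamini-Hochberg over all genes), 4 rows were lower and 0 higher. Of all genes, 3.54% were called lower and 8.19% higher. At an unadjusted p below 0.05, 37 rows were lower and 0 higher, against 13.6% and 16.6% of all genes. In 72 rows both HACY libraries lay below both CCL4 libraries, which held for 30.1% of all genes. In 1 row, Rpl36al, both lay above, which held for 30.7%. The other 11 overlapped. No row lay above on the scale of FPKM or of counts scaled to library size.

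The number called lower depended on how the libraries were scaled and on single libraries. It was 47 with scaling to library size only (10.1% of all genes called lower), 6 with RLE scaling (3.66%) and 8 with upper-quartile scaling (4.57%). It was 0 without HACY replicate 1 (0.719%) or 2 (0.782%), 16 without CCL4 replicate 1 (4.02%) and 4 without CCL4 replicate 2 (8.81%). Offsets for GC content and transcript length gave 23 (7.27%), the replicate block 4 (2.46%), no filter 7 (3.79%) and a stricter filter 4 (3.73%). DESeq2 called 9 (4.41%), limma-voom 5 (2.88%) and limma on FPKM 11 (5.94%).

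**Figure D2:**
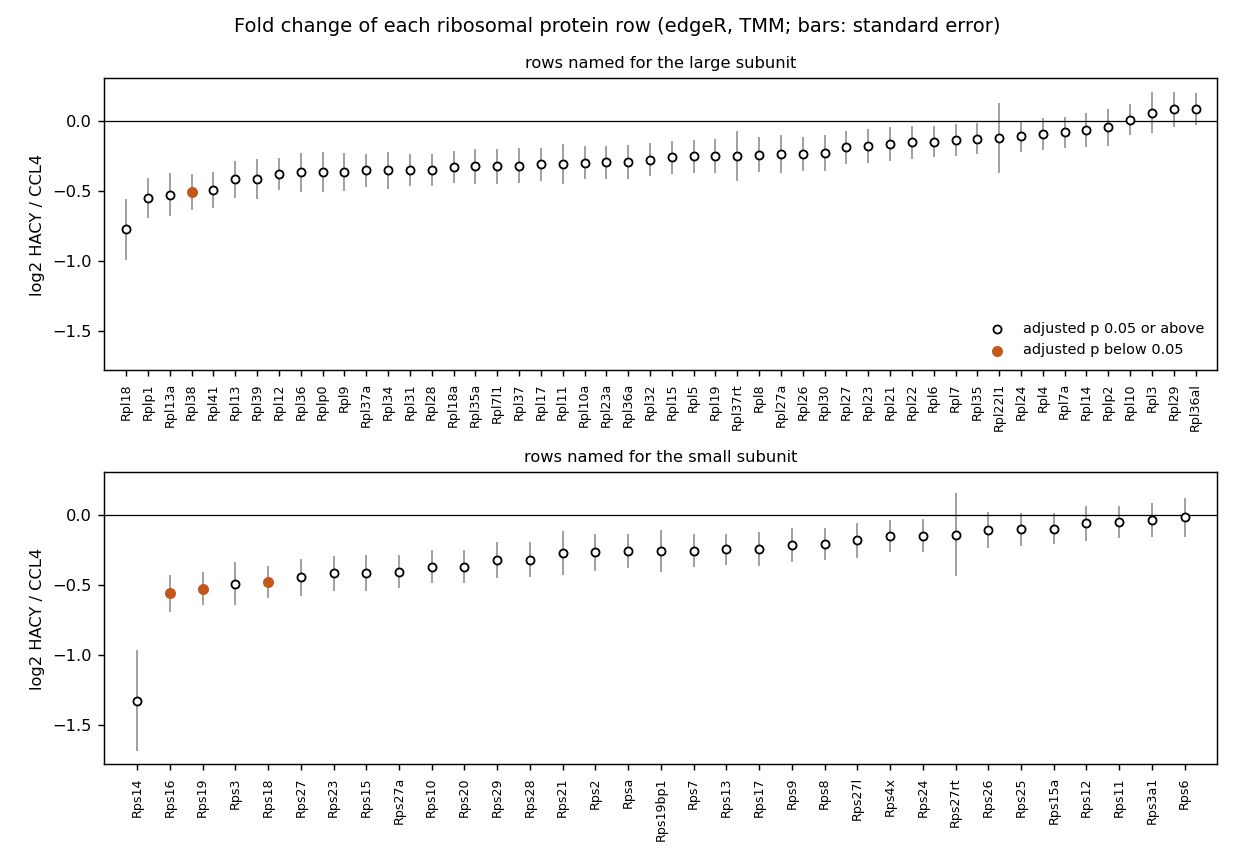
Log2 fold change of HACY over CCL4 for each ribosomal protein row reported here, ordered within the large (top) and small (bottom) subunit, with bars of 1 standard error. Points in colour have an edgeR adjusted p below 0.05: Rpl38 in the large subunit and Rps16, Rps19 and Rps18 in the small subunit. Most points lie below 0.

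The 4 called genes were Rps16, Rps19, Rps18 and Rpl38, of which 3 encode proteins in the head of the small subunit. Rps16 reaches with its tail toward the tRNA in the P site. It had 238 and 261 CPM in HACY and 335 and 399 in CCL4, a log2 fold change of -0.56 (SE 0.13, edgeR adjusted p = 0.0393). Rps18, which lies near the tRNA sites, had 522 and 537 CPM in HACY and 713 and 759 in CCL4 (-0.48, SE 0.11, adjusted p = 0.0396). Rps19, needed to mature the RNA of the small subunit and mutated in Diamond-Blackfan anaemia, had 141 and 149 CPM against 200 and 217 (-0.53, SE 0.12, adjusted p = 0.0343). Rpl38 is a small protein of the large subunit, known for skeletal patterning defects in mutant mice. It had 133 and 140 CPM against 180 and 207 (-0.51, SE 0.13, adjusted p = 0.0453). In each of the 4, both HACY libraries were low and close together and both CCL4 libraries high.

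These calls were near the threshold. All 4 were lost without either HACY library, with adjusted p of 0.246, 0.265, 0.270 and 0.302 for Rps16, Rps18, Rps19 and Rpl38 without HACY replicate 1. Without HACY replicate 2 they were 0.126, 0.218, 0.176 and 0.209. Rps18 was also lost without CCL4 replicate 1 (0.0521) or replicate 2 (0.0523) and Rps16 without CCL4 replicate 2 (0.0511). Rpl38 had a log2 fold change of -0.20 (adjusted p = 0.297) after offsets for GC content and transcript length.

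In GRCm38, Rps16 lies on chr7:28350652-28353155 (+), Rps19 on chr7:24884371-24889806 (+), Rpl38 on chr11:114668524-114672331 (+) and Rps18 on chr17:33951999-33956001 (-). Their start sites are printed because the TOP motif is the feature these mRNAs are best known for. Sequences are RefSeq's for GRCm38.p6, from 10 bases before the start to base 20 of the transcript, 5′ to 3′. Capitals mark the longest run of C and T with a base between 5 before and 10 after the start.
Rps18 (chr17:33955646-33955675, -): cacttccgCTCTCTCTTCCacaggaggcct
Rpl38 (chr11:114668570-114668599, +): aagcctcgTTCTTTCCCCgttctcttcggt
Rps16 (chr7:28350679-28350708, +): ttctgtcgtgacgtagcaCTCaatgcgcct
Rps19 (chr7:24884666-24884695, +): cggtgagtgagggCTCTgggtcgcggctgt
Rps18 and Rpl38 carry runs of 11 and 10 pyrimidines. Rps16 and Rps19 hold only 3 and 4 at the RefSeq start. The start of the GENCODE transcript differs from RefSeq's by 12 bases for Rps18, 46 for Rpl38, 37 for Rps16 and 38 for Rps19, so the first base of these mRNAs is itself uncertain.

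Over the genes with a RefSeq window (64 of the 84), 23 held a run of 8 or more pyrimidines at the start, 35.9%, against 11.5% of 27025 gene windows. For these 64 genes the window nearest the GENCODE start was taken. Other genes had their first listed window, whether or not they were expressed. The shares here and for the motifs below are therefore not matched. The longest run among the 64 belonged to Rpl7a, whose protein lies on the outer face of the large subunit, with 21 bases. Rpl35, which sits near the exit of the peptide tunnel, had 18, and Rps6, the substrate of the S6 kinases, had 10. Genes with long and with short runs, picked after their values were seen, are printed beside their log2 fold changes.
Rpl35 (chr2:39005112-39005141, -): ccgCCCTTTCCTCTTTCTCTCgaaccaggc
Rpl18 (chr7:45718061-45718090, +): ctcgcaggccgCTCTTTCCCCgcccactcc
Rps6 (chr4:86857348-86857377, -): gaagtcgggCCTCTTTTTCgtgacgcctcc
Rpl41 (chr10:128549149-128549178, -): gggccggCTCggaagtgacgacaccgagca
Rpl36al (chr12:69184048-69184077, -): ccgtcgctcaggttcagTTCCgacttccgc
The log2 fold changes of these genes were -0.12 for Rpl35, -0.77 for Rpl18, -0.02 for Rps6, -0.49 for Rpl41 and 0.09 for Rpl36al. These genes were picked with the values known, so no link between run length and fold change can be read from them. The median was -0.21 in the 23 genes with a run of 8 or more and -0.27 in the other 41.

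The promoters shared letters beyond the start. The windows, 250 bases before to 50 after the start, were searched on both strands for 4 short motifs, each counted once per window whether or not it overlapped another. CCGGAAG, the core bound by ETS factors such as GABPA, was in 23 of 64 windows, 35.9%, against 9.12% of all windows. TCTCGCG, one arm of a palindromic promoter element that can overlap its own reverse complement, was in 14 (21.9%, against 2.72%). AAGATGG, the core of YY1 sites, was in 9 (14.1%, against 6.48%), and TATAAA, the TATA box, in 6 (9.38%, against 14.2%). The first match in each called gene's window is printed with its surroundings, the motif or its reverse complement in capitals.
Rps18 (chr17:33955804-33955833, -): agaaggccgaaCCGGAAGttatagctccgg
Rpl38 (chr11:114668549-114668578, +): gggttaaccgtCCGGAAGcggaagcctcgt
Rps19 (chr7:24884554-24884583, +): ggtttagccgcTCTCGCGagcactccgaaa
Rps16 (chr7:28350515-28350544, +): ggaggccagccCCATCTTccgagttctgga
Rps18 and Rpl38 carry the ETS core, Rps19 the arm of the palindrome and Rps16 the YY1 core on the opposite strand. Genes with and without a motif had median log2 fold changes of -0.26 and -0.26 for CCGGAAG and -0.24 and -0.26 for TCTCGCG. For AAGATGG they were -0.32 and -0.26. These are descriptions of the letters, with no test.

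Rps14 and Rpl18 had the lowest log2 fold changes, and the size of both, but not the sign, turned on CCL4 replicate 2. Rpl18 is named after its values were seen. Rps14 encodes a protein of the platform of the small subunit, known from the loss of its human counterpart in 5q- syndrome. It had 343 and 324 CPM in HACY, 487 in CCL4 replicate 1 and 1188 in CCL4 replicate 2. This gave -1.33 on the log2 scale (SE 0.36, edgeR adjusted p = 0.0583). It was -1.83 (adjusted p = 0.0034) without CCL4 replicate 1 and -0.54 (0.0241) without CCL4 replicate 2. Rps14 took 2.87% of all ribosomal protein counts in CCL4 replicate 2 and 0.956% to 1.26% in the other libraries. Rpl18, of the large subunit, had 362 and 359 CPM in HACY and 468 and 765 in CCL4 (-0.77, SE 0.22, adjusted p = 0.0653). Its log2 fold change was -1.09 without CCL4 replicate 1 and -0.38 without CCL4 replicate 2. Rpl18 passed the test in DESeq2 (adjusted p = 0.0035). In both genes HACY was below CCL4 and the CCL4 replicates lay far apart.

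The replicates differed more in CCL4 than in HACY. The ratio of CCL4 replicate 2 to replicate 1 had a median of 1.03 over the 84 rows and ran from 0.746 in Rpl22l1 to 2.44 in Rps14 and 1.64 in Rpl18. The ratio of the HACY replicates had a median of 1.05 and ran from 0.924 to 1.17. Counts of the 84 rows differed between replicates beyond sampling noise, with a chi-square per degree of freedom of 6.52 in HACY and 149 in CCL4. Over all genes it was 19.8 and 35.6. Without Rps14 it was 6.22 in HACY and 89.5 in CCL4. The neutrophil marker sum given above also stood apart in CCL4 replicate 2, and its part in these ratios was not tested.

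**Figure D3:**
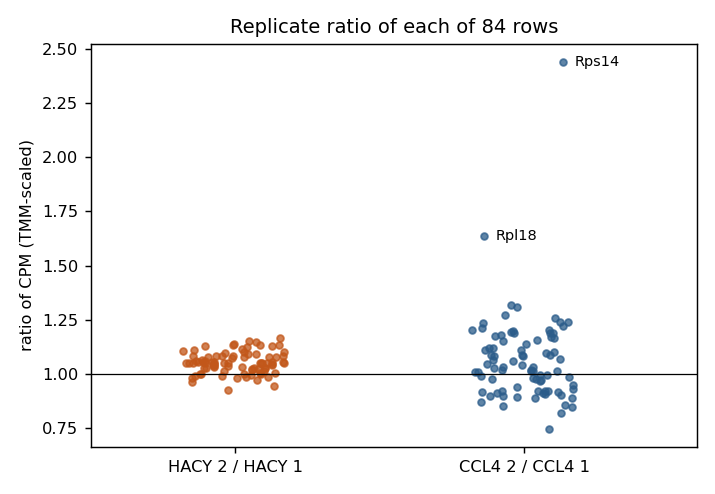
Ratio of replicate 2 to replicate 1 (TMM-scaled CPM, linear axis) for each of the 84 rows, HACY at left and CCL4 at right, with points spread sideways at random. HACY ratios lie between 0.924 and 1.17, while CCL4 ratios reach 1.64 in Rpl18 and 2.44 in Rps14.

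The proteins of the stalk showed unequal values, and Rpsa is given beside them. The stalk of the large subunit, which recruits the translation factors that use GTP, is built from Rplp0 and dimers of Rplp1 and Rplp2. Rplp0 had 1149 and 1273 CPM in HACY and 1395 and 1722 in CCL4 (-0.36, SE 0.14, edgeR adjusted p = 0.142). Rplp1 had 270 and 304 CPM against 375 and 465 (-0.55, SE 0.14, adjusted p = 0.0526). Rplp2 had 231 and 243 CPM against 222 and 267 (-0.04, SE 0.13, adjusted p = 0.865). Rplp0 and Rplp1 were below CCL4 in both HACY libraries, and the groups overlapped in Rplp2. No test of the difference between these genes was made. Rpsa, a small subunit protein also known as the laminin receptor precursor, had 1612 and 1702 CPM in HACY and 1916 and 2043 in CCL4 (-0.26, SE 0.12, adjusted p = 0.195).

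Among proteins with known roles outside the ribosome, Rpl5, Rpl11 and Rps6 were not called. Rpl5 and Rpl11 form a particle with 5S ribosomal RNA that can bind MDM2 and so stabilise p53. Rpl5 had 606 and 653 CPM in HACY and 783 and 716 in CCL4 (-0.25, SE 0.12, edgeR adjusted p = 0.206). Rpl11 had 367 and 385 CPM against 411 and 518 (-0.30, SE 0.14, adjusted p = 0.197). Rps6, phosphorylated by the S6 kinases, had 979 and 1022 CPM against 1113 and 911 (-0.02, SE 0.14, adjusted p = 0.952). The Rps6 groups overlapped, with CCL4 replicate 1 highest and CCL4 replicate 2 lowest. Among the 10 kinase rows left out by the rule, Rps6kb1 and Rps6kb2, the kinases of Rps6 under mTORC1, had log2 fold changes of 0.09 (adjusted p = 0.686) and 0.01 (0.985). The 1 called row was Rps6ka3, a kinase downstream of ERK, higher in HACY with 110 and 118 CPM against 81.2 and 73.8 (0.55, SE 0.13, adjusted p = 0.0343). Of all genes, 8.19% were called higher. Rps6ka3 was not called with scaling to library size (edgeR adjusted p = 0.0843) or in limma on FPKM (adjusted p = 0.0762).

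**Figure D4:**
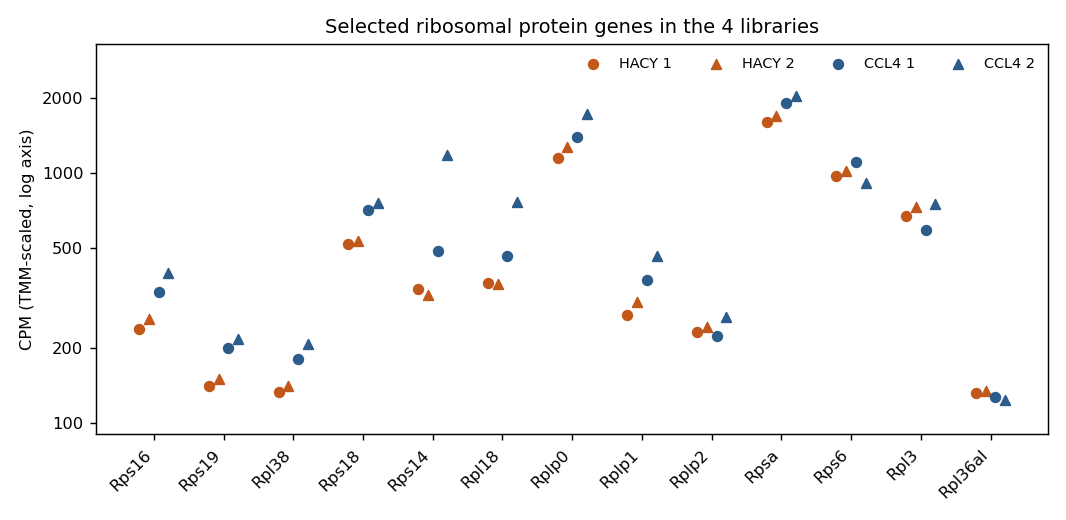
TMM-scaled CPM (log axis) of 13 ribosomal protein genes in the 4 libraries, HACY in orange and CCL4 in blue, circles for replicate 1 and triangles for replicate 2. HACY points lie below CCL4 points in Rps16, Rps19, Rpl38 and Rps18. CCL4 replicate 2 stands alone in Rps14 at 1188 CPM, and the groups overlap in Rplp2, Rps6 and Rpl3.

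A few genes had values near 0 or above, chosen here after their values were seen. Rpl10, which joins late in the assembly of the large subunit, had 517 and 498 CPM in HACY and 506 and 501 in CCL4 (0.01, SE 0.11, edgeR adjusted p = 0.961). Rpl3, which lies close to the site of peptide bond formation, had 677 and 731 CPM against 594 and 755 (0.06, SE 0.15, adjusted p = 0.818). Rpl29 had 436 and 449 CPM against 451 and 384 (0.08, SE 0.13, adjusted p = 0.700). In all 3 the groups overlapped. With scaling to library size only, the log2 fold changes were -0.16 for Rpl10, -0.11 for Rpl3 and -0.09 for Rpl29, so their sign changed with the scaling. It also changed with single libraries. The value was -0.02 for Rpl10 without HACY replicate 1, -0.10 for Rpl3 without CCL4 replicate 1 and -0.03 for Rpl29 without CCL4 replicate 2.

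Some paralogs can replace their parent in the ribosome. The ratio of a paralog to its parent within a library does not depend on how libraries are scaled. Rpl36al, a copy of Rpl36a that encodes a protein of the same length, had 132 and 135 CPM in HACY and 127 and 124 in CCL4 (0.09, SE 0.12, edgeR adjusted p = 0.652; -0.08 with scaling to library size). Rpl36a had 119 and 129 CPM against 158 and 145 (-0.29, SE 0.12, adjusted p = 0.163). On the FPKM scale Rpl36al stood at 103% and 96.4% of Rpl36a in HACY and at 80.2% and 80.8% in CCL4. The paralog was thus nearer to its parent in both HACY libraries. These ratios were not tested. Of the transcript's 50-base words, 85.5% in Rpl36a and 63.3% in Rpl36al also occur in another gene, so their counts are uncertain.

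For some of the other paralogs the deposited FPKM and the counts gave different pictures, and both are given. Counts here are divided by the length of the GENCODE transcript. Rps27l, which is induced by p53, stood at 10.04% and 11.5% of Rps27 in HACY and at 9.95% and 9.08% in CCL4 by FPKM. By length-scaled counts it stood at 82.0% and 82.7% in HACY and at 76.5% and 61.5% in CCL4. HACY lay above CCL4 on both scales, but the level relative to the parent is uncertain. Rpl22l1 stood at 83.5% and 59.5% of its parent Rpl22 in HACY and at 56.5% and 39.6% in CCL4 by FPKM. By length-scaled counts it stood at 5.74% and 5.23% in HACY and at 6.07% and 4.63% in CCL4, so the groups overlapped. The higher FPKM ratio in HACY is therefore not seen in the counts. Rpl7l1 stood at 8.23% and 7.47% of Rpl7 in HACY and at 8.70% and 8.85% in CCL4 by FPKM, and at 24.1% and 21.7% against 26.3% and 25.7% by length-scaled counts. HACY was below CCL4 on both scales. Rpl36al stood at 102% and 96.0% of Rpl36a in HACY and at 73.7% and 78.4% in CCL4 by length-scaled counts, close to its FPKM ratios. The retrogene Rps27rt stood at 5.40% and 5.24% of Rps27 in HACY and at 4.35% and 4.57% in CCL4 by FPKM. By length-scaled counts it stood at 5.22% and 4.91%, against 4.08% and 4.11%. Rpl37rt stood at 9.49% and 8.79% of Rpl37 in HACY and at 9.80% and 8.66% in CCL4 by FPKM, which overlapped. By length-scaled counts it stood at 31.9% and 31.5% in HACY, above the 31.1% and 29.2% in CCL4. Reads of a retrogene and its parent can be assigned to either, so the values of these 2 retrogenes are uncertain. Rps19bp1 had 32.4 and 34.1 CPM in HACY and 38.1 and 41.3 in CCL4 (-0.26, SE 0.15, adjusted p = 0.302).

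Deposited levels per length differed widely within the family. Mean FPKM over the 4 libraries ran from 14.97 in Rpl22l1 to 3012 in Rpl41, with a median of 417. The median was 402 for the large subunit and 444 for the small subunit. Rpl41, the shortest of the proteins with 25 residues, had 2442 and 2494 FPKM in HACY and 3278 and 3834 in CCL4. Rps26, which lies where the mRNA leaves the ribosome, had 1918 and 1949 FPKM against 2425 and 2001. Rpl35 had 1514 and 1530 FPKM against 1796 and 1769. Rpl41, Rps26 and Rpl35 had the highest means, followed by Rps2 at 1519, Rpl26 at 1264 and Rps14 at 1191. Without CCL4 replicate 2 the mean of Rps14 was 773, below that of Rps12 (1097) and Rps23 (999). Rps26 was lower in FPKM in both HACY libraries than in either CCL4 library, while its TMM-scaled CPM overlapped, at 560 and 591 against 670 and 568. Among canonical proteins, Rpl22 had 26.1 FPKM on average, Rpl21 40.2, Rpl36 47.4 and Rps15a 58.3. The length used for these values is not given in the sources used here, and they did not follow the counts in every gene. FPKM divided by CPM per kilobase of the GENCODE transcript had a median of 0.933 over the 84 rows and quartiles of 0.601 and 1.19. This ratio also depends on which GENCODE transcript is taken. It was 0.0824 in Rpl22, 0.122 in Rps15a, 0.141 in Rpl36 and 0.300 in Rpl21, and 2.84 in Rpl35 and 2.36 in Rps26. Those 4 low levels and the ranks of the latter 2 therefore hold for deposited FPKM only.

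On the FPKM scale the direction was the same. The log2 fold change of FPKM + 1 was negative in 83 of the 84 rows, with a median of -0.35 against -0.10 for all genes. In 78 rows both HACY libraries were below both CCL4 libraries, which held for 42.3% of all genes. Counts scaled to library size gave 82 rows, against 45.4% of all genes.

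Within the ribosomal protein pool, differences between the groups were small for most rows. When each library was scaled to its total over the 84 rows, the median is near 0 by construction. On that scale 75 of the 84 log2 fold changes lay within 0.25 of 0, and 0 passed the adjusted threshold, against 1.84% of all genes called lower (smallest edgeR adjusted p = 0.0550, in Rps14). At an unadjusted p below 0.05, 2 rows were lower, Rps14 at -1.04 and Rpl18 at -0.49. Another 3 were higher, Rpl3 at 0.34, Rpl36al at 0.36 and Rpl29 at 0.35. Of all genes, 36.1% passed that unadjusted threshold on this scale. Their median there was 0.26, since the scaling centres the 84 rows and not all genes. Both shares of all genes are thus partly set by the scaling and are no measure for the rows. The 10 most abundant rows held 30.9% ± 0.139 of the pool in HACY and 31.2% ± 1.09 in CCL4 (SD, n = 2; exact permutation p = 1.0).

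**Figure D5:**
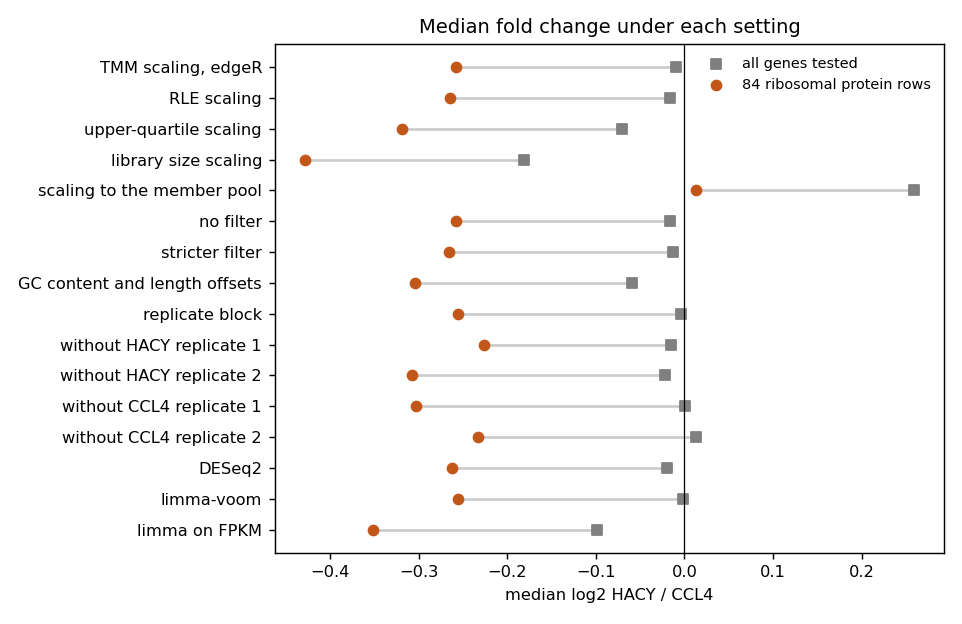
Median log2 fold change of HACY over CCL4 for the 84 ribosomal protein rows (circles) and for all genes tested (squares) under each of 16 settings. The rows lie to the left of all genes in every setting, by 0.21 to 0.30, and scaling to the member pool moves both to the right.

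Genome features of the rows are given as description. The genes lie on 19 chromosomes, with 14 on chromosome 7, including Rps16, Rps19 and Rpl18. Within their span 30 of the genes hold small nucleolar RNA genes, and their median log2 fold change was -0.25, against -0.28 in the other 54. Across the 84 rows, which share libraries and depth, the log2 fold change had a Pearson r of -0.25 with GC content (Spearman rho -0.25). With transcript length r was 0.04 (rho 0.13), and with log2 mean CPM -0.04 (rho 0.07). Ribosomal protein genes have many processed pseudogenes. A median of 56.4% of each transcript's 50-base words also occurs in another GENCODE gene, 86.7% for Rps18, 55.4% for Rpl38, 53.6% for Rps19 and 40.1% for Rps16. Counts of such genes are uncertain where reads were shared or dropped. The r between that shared percentage and the log2 fold change was 0.14 (rho 0.12).

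Ribosomal proteins outside the symbol rule had values of the same sign. Rack1, a scaffold on the small subunit, had 796 and 852 CPM in HACY and 1053 and 1232 in CCL4 (-0.47, SE 0.13, edgeR adjusted p = 0.0593). Fau, a fusion of a ubiquitin-like protein to a small subunit protein, had a log2 fold change of -0.16 (adjusted p = 0.414). Neither passed the test, although Rack1 did with scaling to library size (-0.64, adjusted p = 0.0161). Rps27a, the ubiquitin fusion among the 84 rows, had 207 and 204 CPM in HACY and 288 and 256 in CCL4 (-0.40, SE 0.12, adjusted p = 0.0743).

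Elongation and initiation factors had medians nearer to 0. Of 20 elongation factors and other TOP mRNAs, 0 were lower and 1 was higher, against 3.54% and 8.19% of all genes, and the median was -0.04. The 1 was Hnrnpa1, an RNA-binding protein with a TOP mRNA, with 706 and 781 CPM in HACY and 487 and 470 in CCL4 (0.64, SE 0.12, edgeR adjusted p = 0.0183). Eif4b, a cofactor of the mRNA helicase, had -0.40 (adjusted p = 0.0683), Npm1, a nucleolar chaperone, 0.39 (0.0854), and Eif3k, a subunit of initiation factor 3, -0.58 (0.0732). Of 32 initiation factors none passed in either direction, with a median of 0.07. Among these, Eif4g2 had 0.39 (0.0745) and Eif1 -0.36 (0.0871).

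Biogenesis factors had a median close to 0 after TMM scaling. Of 62 biogenesis factors none was called, and the median was -0.0014 (-0.17 with scaling to library size). The smallest p-values belonged to Riok1, a kinase of small subunit maturation (0.60, edgeR adjusted p = 0.0526), Lyar (0.46, 0.0564) and Las1l, which acts in processing of the second spacer of the ribosomal RNA (0.48, 0.0647). Of 15 genes of RNA polymerase I and its factors, 1 was lower, against 3.54% of all genes. This was Polr1c, a subunit shared with RNA polymerase III (-0.59, SE 0.14, adjusted p = 0.0388), and the list's median was -0.19, -0.06 without CCL4 replicate 1 and -0.29 without CCL4 replicate 2. Of 26 regulators around MYC, mTORC1 and TOP mRNAs, 1 was lower, against the same 3.54% of all genes, with a median of -0.08. This was Ddit4, an inhibitor of mTORC1, with 22.3 and 21.9 CPM in HACY and 35.7 and 37.8 in CCL4 (-0.73, SE 0.16, adjusted p = 0.0297). Myc, which drives ribosome production, had 303 and 290 CPM against 413 and 371 (-0.40, SE 0.12, adjusted p = 0.0717), and its relative Mycl had 4.86 and 3.75 CPM against 7.94 and 9.32 (adjusted p = 0.0659). Without either HACY library none of these lists had a call in either direction. Removal of single CCL4 libraries is given by effect size only. Without CCL4 replicate 1 the median was 0.02 for TOP mRNAs, 0.15 for initiation factors, 0.09 for biogenesis factors and -0.0049 for regulators. Without CCL4 replicate 2 it was -0.04, 0.0021, -0.08 and -0.04 in the same order. With scaling to library size, where 10.1% of all genes were called lower, 4 TOP mRNAs, 2 initiation factors, 5 biogenesis factors, 2 polymerase I genes and 4 regulators were lower.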

How the data were processed

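Total RNA purified on columns went into stranded, paired-end mRNA libraries, per the labels' protocols. One table was deposited for each library, holding raw counts of reads and FPKM values by gene symbol. The authors scaled FPKM to transcript length and library size, per the file headers. The submitters' processing notes name Trimmomatic, HISAT2, Cufflinks, HTSeq, DESeq and the build mm10. Which annotation was used and whether counting used strand is not given in the sources used here. Genes overlapping on opposite strands are therefore uncertain.

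HACY was compared with CCL4 over the whole table by edgeR 4.0.16 (R 4.3.3). The steps were filterByExpr (at least 10 counts, total 15), TMM scaling and glmQLFit with its robust option. Two-sided p-values of 13428 genes were adjusted by Benjamini-Hochberg, with 0.05 as threshold. The common dispersion came to 0.0272. A standard error is the absolute log2 fold change over the root of F, an approximation. Seeing 0 counts in a library limits a gene to 3 counts (0.155 to 0.162 CPM), a limit for counting error only. Shares were compared by exact permutation in SciPy 1.17.1. GENCODE vM21 gave positions and transcripts by symbol, with all 84 rows matched, and promoter windows were RefSeq's. For the 84 rows, lengths and shared words came from the best ranked transcript with the longest coding sequence, the shortest of several. GC content and the offsets used the longest of the best ranked transcripts.

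The other settings were scaling by RLE, by upper quartile, to library size, or to the summed counts of the 84 rows (the member pool). Others were no filter, a filter of 50 counts in 2 libraries, spline offsets for GC content and transcript length (4 df, values for 99.2% of genes), a block on replicate number and the removal of each library. Further tools were DESeq2 1.42.0, limma-voom (limma 3.58.1), and limma on log2(FPKM + 1) for genes of at least 1 FPKM in 2 libraries. Ratios of paralogs by counts, values of single rows without CCL4 replicate 2 and replicate noise without Rps14 were added after seeing the data. The count test was tried on simulated data.

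Genes were named by rule. The rule took called rows, the 3 most abundant per length of each subunit, the stalk proteins and Rpsa. It also took paralogs with their parents, Rpl5, Rpl11 and Rps6, and up to 4 genes of each other list. Names outside it (such as Rpl18, Rpl3, Rpl10, Rpl29 and Rps27a) were chosen after their values were seen. A few tested genes are left unnamed and are not reported here. The rows and lists were chosen with earlier results of these data known.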

Additional observations from a re-analysis of the deposited data

How the results depend on the processing

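The number of the 84 rows called lower (4 with TMM scaling and edgeR) was 8 with upper-quartile scaling, 47 with library size scaling, 0 with scaling to the member pool, 7 with no filter, 23 with GC content and length offsets, 9 with DESeq2 and 11 with limma on FPKM. It lay between 0 and 16 with each library left out, 0 without either HACY library and 16 without CCL4 replicate 1. It stayed within 1.5 times of 4 with RLE scaling, limma-voom and the stricter filter. In each fit that leaves out a library, the lone library is assumed to vary like the other group.

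The median log2 fold change was -0.32 with upper-quartile scaling (large subunit -0.33, small -0.32), -0.43 with library size scaling (-0.44 and -0.43) and -0.35 with limma on FPKM (-0.36 and -0.35). It was 0.013 with scaling to the member pool (0.0050 and 0.014), which is near 0 by construction. With GC content and length offsets it was -0.30 (large subunit -0.32, small -0.24). With each library left out it lay between -0.31 and -0.23 (large -0.31 to -0.24, small -0.31 to -0.22). The median of all genes was itself -0.18 with library size scaling, -0.07 with upper-quartile scaling and -0.10 on FPKM. Set against that median, the rows stood -0.30 to -0.21 apart over the 16 settings. The large subunit stood -0.29 to -0.22 apart and the small subunit -0.31 to -0.19. The cause of these shifts beyond the scaling itself was not tested. The share of counts and the subunit ratio kept their direction in every setting that could change them.

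With the replicate block 4 rows were called, with Rplp1 in place of Rpl38 (log2 fold change -0.50, adjusted p = 0.0543). The numbers pair nothing in the labels, and deviations of same-numbered libraries had r of -0.0989 over all genes, so the samples share only a number. Rps19 was lost in limma on FPKM (adjusted p = 0.0517). For 61 named genes under 15 alternatives, 781 of 915 values kept their side of the threshold, 105 passed it newly, 29 no longer passed and 0 called values changed sign. Of the 781, 742 also kept their sign and 39 that were not called changed it, 16 of them under scaling to the member pool. With 2 libraries a group, exact permutation cannot go below 0.33, and outlying libraries could not be tested for.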
